A study of Mus musculus with 2 samples.

Results

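The region described here is a window of 300 kb on mouse chromosome 11 that holds the gene Gna13, from 109100001 to 109400000 in the mm8 build (chr11:109100001-109400000). It was chosen by its strongest peak of the transcription factor EBF1, one of the highest-scoring in a genome-wide list, and all listed peaks whose centre lies in it were taken. It holds 4 of the 7424 peaks in that list and 4 of the 664 on chromosome 11. The score that drew attention to the window is therefore a description of it and supports nothing further.

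EBF1 is a DNA-binding protein needed for the B cell lineage to form, and it stays expressed in mature B cells. Gna13 encodes the alpha subunit of a heterotrimeric G protein that couples receptors such as the sphingosine-1-phosphate receptor S1pr2 to signalling inside the cell. In B cells this pathway restrains migration and growth signals in germinal centres, and GNA13 is recurrently mutated in human germinal-centre B cell lymphomas. In RefSeq's gene order for GRCm38.p6, the protein-coding neighbours of Gna13 are Rgs9, a regulator of G protein signalling, and Amz2, a metallopeptidase. The files are in mm8, and no annotation of that build was used here. The label Gna13 thus rests on the stated position of the window, and whether each peak lies in an exon, an intron or between genes was not analysed here.

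EBF1 was mapped by chromatin immunoprecipitation and sequencing (ChIP-seq) in B cells from the spleens of adult mice of strain C57BL/6. Cells bearing CD43, AA4.1, CD9, CD4 or CD8 had been removed on magnetic columns, which left a population that was about 97% B220 positive, with about 92% of those CD23 positive and CD21 intermediate (mature follicular B cells). The EBF1 ChIP group is 1 library, made with 4 µg of a custom rabbit polyclonal antibody against mouse EBF1, and the Input group is 1 library with no antibody given. Both share strain, tissue, fixation in 1% formaldehyde for 10 min and library construction. The number of mice behind each is not stated, and DNA libraries cannot check the cells against marker genes. There were no replicates, so no test was made, and every interval below is a 95% interval for counting error alone. The libraries held 24354888 ChIP and 23053279 input reads, of which 4693 and 3483 fell in the window.

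The reference sequence of the Gna13 promoter is shown because EBF1 is known to bind a palindromic motif, and these letters are the closest regulatory sequence of the gene at hand. It is the 250 bases before the RefSeq transcription start in GRCm38.p6, 5′ to 3′ on the strand of the gene, with CpG dinucleotides in capitals.

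Gna13 promoter: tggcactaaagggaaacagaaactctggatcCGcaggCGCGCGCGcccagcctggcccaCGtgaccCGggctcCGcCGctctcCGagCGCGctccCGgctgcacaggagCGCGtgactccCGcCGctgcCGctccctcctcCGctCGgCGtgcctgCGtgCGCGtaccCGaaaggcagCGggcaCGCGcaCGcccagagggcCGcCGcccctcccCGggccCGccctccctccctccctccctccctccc

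The Gna13 promoter has 33 CpG dinucleotides in these 250 bases, against a median of 6 over all 32851 promoters in the table, and 4.03% of promoters have as many or more. Its G+C content is 76.0%, against a median of 52.4%. The core of the EBF1 motif, CCCNNGGG, which reads alike on both strands, has 0 matches here and at least 1 match in 11.8% of all promoters over the same 250 bases. This says only that those letters are not in this stretch. The distance from it to the EBF1 peaks was not measured, since the builds differ, and the sequence under the peaks was not used here.

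The strongest peak of the Gna13 locus lay at chr11:109242161-109242310. Its score, the authors' own value per peak, was 71.4, which ranked 14th of 7424 and was exceeded by 1 other peak on chromosome 11. It held 180 ChIP reads (exact Poisson interval 155 to 208) and 3 input reads (0.619 to 8.77). Scaled by library size, the ChIP to input ratio was 56.8 (19.1 to 278), with an interval from the exact binomial method of Clopper and Pearson. The peak was called on these same reads, so the size of the ratio is raised by that choice. With 3 input reads the ratio is loosely fixed: in 1 kb around the centre it was 20.7 (11.9 to 39.3), from 284 ChIP and 13 input reads. Each position and strand occurs once in the files, so a peak of 150 bp can hold at most 300 reads. The peak filled 60.0% of these positions, and a correction for occupied positions raised the ratio to 86.3.

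A smaller peak stood beside it at chr11:109241491-109241640, 670 bp below it from centre to centre. Its score was 10.3 (rank 1346), and it held 15 ChIP reads (8.40 to 24.7) and 0 input reads. That is at least 4.73-fold above a floor of 3 input counts. Counting the error of the ChIP reads as well, the exact interval of its ratio began at 3.39. The 1 kb around its centre had a ratio of 4.82 (2.50 to 10.2), from 56 ChIP and 11 input reads. It shares 330 bp, and the reads in them, with the 1 kb around the strongest peak.

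The other peaks lay above the strongest. The one at chr11:109289811-109289960, 47.65 kb away, was second in the window, with a score of 19.3 (rank 492). It held 46 ChIP reads (33.7 to 61.4) and 2 input reads, which gave 21.8 (5.69 to 185) as the scaled ratio. The 1 kb around its centre had a ratio of 7.28 (4.07 to 14.1), from 100 ChIP and 13 input reads. The weakest, at chr11:109256091-109256240, 13.93 kb from the strongest, scored 7.65 (rank 2150). Its 16 ChIP reads and 1 input read gave a scaled ratio of 15.1 (2.35 to 635), and the 1 kb around its centre had 3.42 (1.82 to 6.89), from 47 ChIP and 13 input reads.

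Counted over 1 kb, the interval of the strongest peak, from 11.9, lay above that of the peak at 13.93 kb and overlapped that of the peak at 47.65 kb. It also lay above that of the peak beside it, although these 2 counts share reads. Among the other 3 peaks the intervals overlapped, and their order by ratio was not resolved at this depth. The strongest peak supplied 70.0% of the ChIP reads in the 4 peaks. The pooled ratio was 40.5 (18.4 to 111), and 24.3 (8.01 to 120) without the strongest peak. The interval lay above 1 in all 4 peaks, as in 86.6% of the listed peaks on chromosomes 1 to 19, X and Y, and above 2 in all 4, against 38.3%. Being called on these reads, the peaks were bound to stand above input, and nothing is read from these counts. For scale, the median listed peak held 12 ChIP reads and 1 input read.

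**Figure D1:**
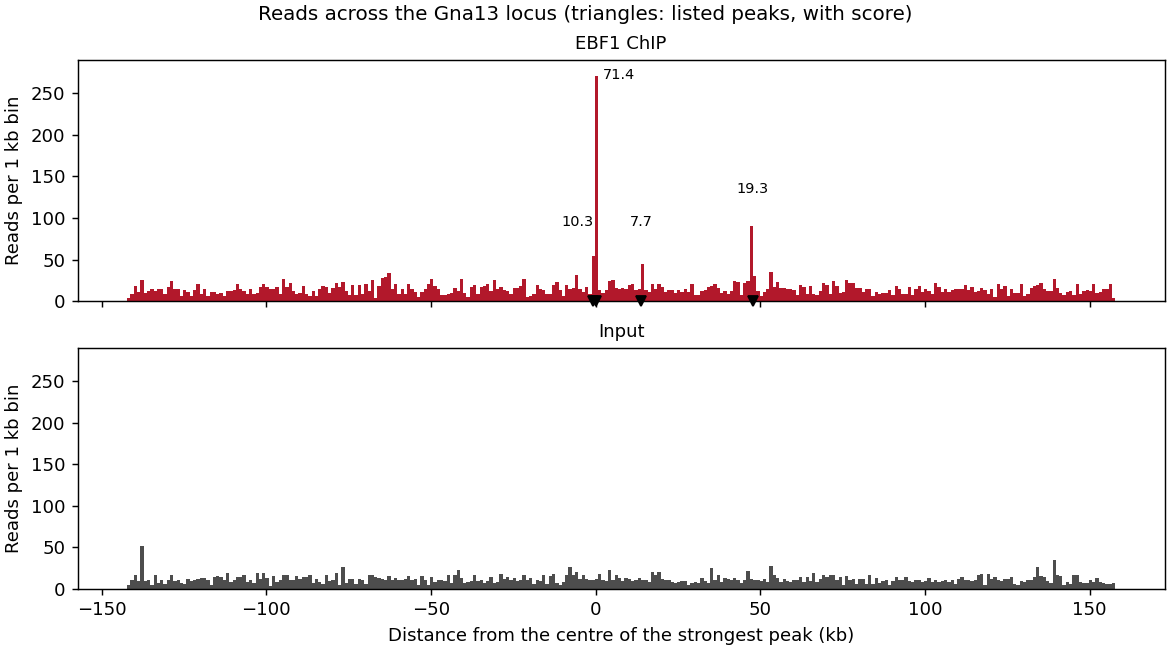
ChIP reads (top) and input reads (bottom) in each 1 kb bin of the Gna13 locus, by distance in kb from the centre of the strongest peak; triangles mark the 4 listed peaks, with their scores. The bin of the strongest peak holds 271 ChIP and 12 input reads, while no bin without a peak holds more than 35 ChIP reads.

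EBF1 ChIP reads at the strongest peak lay on both strands, with plus-strand starts below the centre and minus-strand starts above it. In the 300 bp on each side of the centre, 134 ChIP reads started on the plus strand and 132 on the minus strand, against 5 and 2 input reads. The median start lay at -54.5 bp on the plus strand and at 65.5 bp on the minus strand, counted from the centre, 120 bp apart. The middle 50% of plus-strand starts ran from -96.0 to -16.8 bp and that of minus-strand starts from 24.8 to 107 bp, so these ranges did not overlap. With starts moved 50 bp inward and smoothed over 50 bp, the profile had its summit at -9 bp, and its width at 50% of the height over the flanks was 125 bp. The longest run of adjacent positions filled on a strand was 23.

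**Figure D2:**
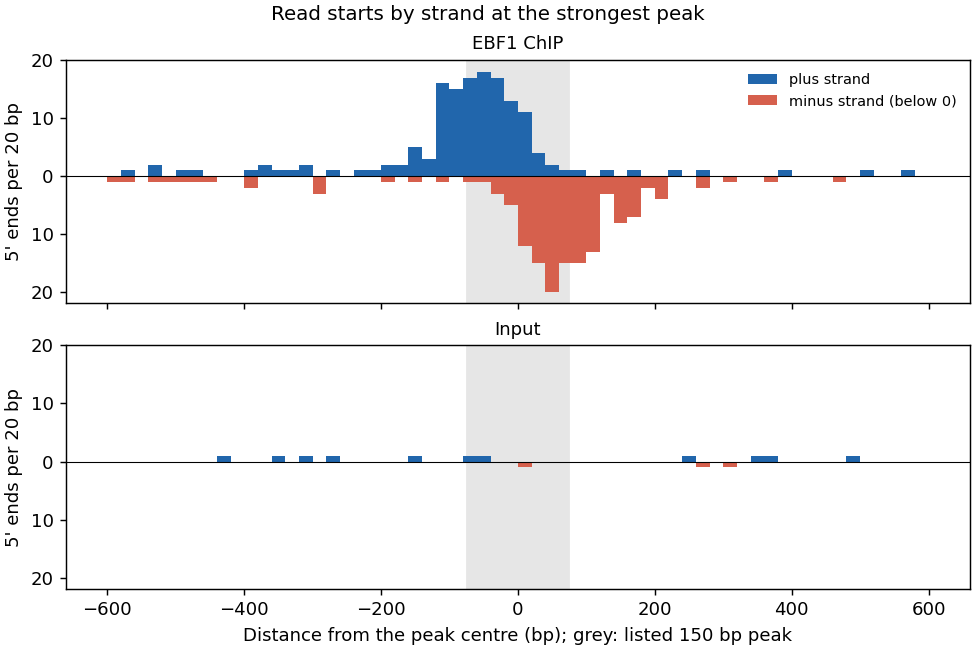
Read starts per 20 bp around the centre of the strongest peak, plus strand above 0 and minus strand below, for ChIP (top) and input (bottom); the grey band is the listed 150 bp. Plus-strand starts gather below the centre and minus-strand starts above it, with medians 120 bp apart, and the input has 5 plus and 2 minus starts within 300 bp.

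The other 3 peaks had fewer reads and a less clear offset between strands. At the peak 47.65 kb away, 43 plus-strand and 41 minus-strand starts had medians 107 bp apart, at -50.0 and 57.0 bp, but their middle 50% overlapped. At the peak beside the strongest, 23 plus-strand and 20 minus-strand starts had medians 82.5 bp apart, and their middle 50% also overlapped. At the weakest peak both medians lay above the listed centre, at 46.5 and 78.0 bp, from 18 and 17 starts. Reads counted inside each of the 4 peaks came from both strands, at 9 plus and 6 minus in the peak beside the strongest, 90 and 90 in the strongest, 6 and 10 in the weakest, and 23 and 23 in the peak at 47.65 kb.

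Against the 14 other peaks among the 15 with the highest score, the strongest peak of the Gna13 locus lay within their range in shape. The widths of the others ran from 115 to 259 bp with a median of 154.5 bp, and 12 of the 14 were wider. Their strand distances ran from 98.5 to 220 bp with a median of 131 bp. They held 146 to 267 ChIP reads, and 10 of them held more than the 180 counted here. All 15 were picked by score from these reads, so this is a description of where the peak stands among them.

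The nearest listed peak was 0.67 kb away at the Gna13 locus. At the 14 others it was between 3.22 and 308.3 kb away, with a median of 24.1 kb. Of all 7415 peaks on chromosomes 1 to 19, X and Y, 629 (8.48%) had another within 1 kb. The smaller peak lies on the lower side of the strongest, and the 2 sides were unequal. Between 250 and 1000 bp from the centre, 47 ChIP reads lay on the lower side and 13 on the upper side, 3.62 times as many (1.92 to 7.28), while the input had 7 and 9. In the 14 others the fuller side held 1 to 3.625 times the reads of the emptier one, with a median of 1.73, and 1 of them exceeded the Gna13 locus. The smaller peak was called from part of these reads, so the inequality is not independent of that call, and its cause was not tested. The 520 bp between the limits of the pair held 58 ChIP and 5 input reads. The 520 bp above the strongest peak held 53 and 5. These nearly equal totals include the flanks of the strongest peak itself. Within 250 bp of the centre the lower side held 123 ChIP reads and the upper side 140. At 250 to 500 bp the lower side held 15 and the upper side 6.

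The enrichment was narrow in distance as well. Within 250 bp of the centre, on both sides together, 263 ChIP and 8 input reads gave a ratio of 31.1 (15.6 to 72.8). It was 3.97 (1.46 to 13.5) at 250 to 500 bp and 3.36 (1.69 to 7.26) at 500 to 1000 bp, where the smaller peak lies. Split by side, the band from 500 to 1000 bp had a ratio of 6.06 (2.34 to 19.9) below the peak and 1.10 (0.318 to 3.98) above it.

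From 1000 to 10000 bp the ratio at the Gna13 locus did not stand above 1 by more than counting error. It was 0.841 (0.465 to 1.51) at 1000 to 2000 bp, from 24 ChIP and 27 input reads, 0.991 (0.727 to 1.35) at 2000 to 5000 bp and 1.09 (0.872 to 1.37) at 5000 to 10000 bp. Of the 14 other top peaks, 12 had a higher ratio at 1000 to 2000 bp, with a median of 1.41, and 9 had a higher one at 2000 to 5000 bp, with a median of 1.30. Further out the ratio was 1.33 (1.12 to 1.58) at 10000 to 20000 bp, 1.36 (1.23 to 1.51) at 20000 to 50000 bp and 1.22 (1.13 to 1.32) at 50000 to 100000 bp. The peaks at 13.93 and 47.65 kb lie in the first and second of these bands, on the upper side. The lower side, which holds no listed peak there, had 1.22 (0.939 to 1.60), 1.23 (1.07 to 1.42) and 1.23 (1.10 to 1.37) in the same bands. A dip beside the peak cannot be read from 24 reads, whose interval reaches from 0.465 to 1.51.

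**Figure D3:**
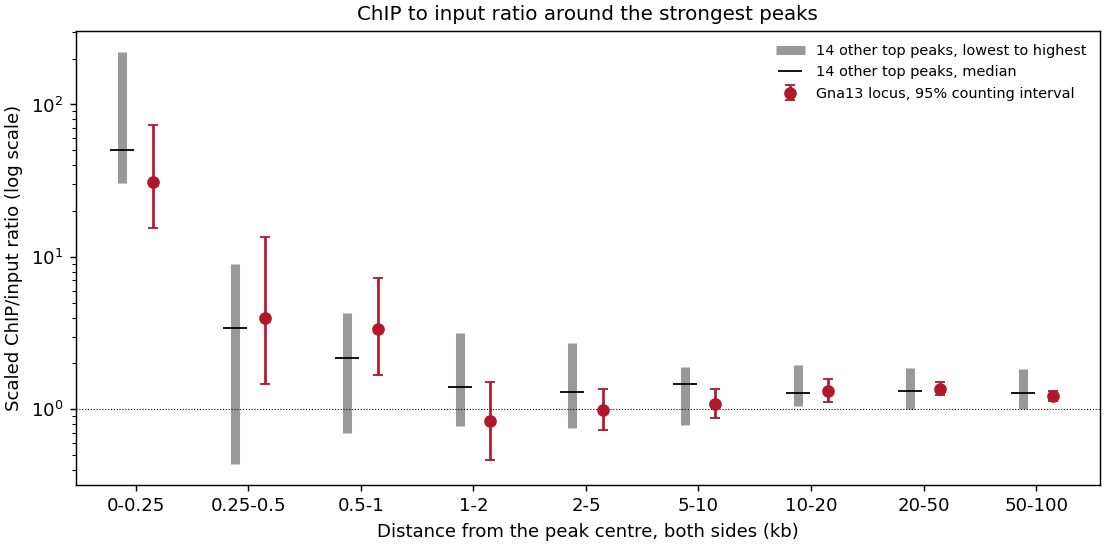
Scaled ChIP to input ratio (log axis) in bands of distance from the peak centre, in kb, with both sides added; red points are the strongest peak of the Gna13 locus with its 95% counting interval, grey bars the range and black marks the median of the 14 other top peaks. The ratio at the locus falls from 31.1 within 0.25 kb to 0.841 at 1 to 2 kb.

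The 4 peaks formed an isolated group. They spanned 48.32 kb from the first centre to the last, and the next listed peaks lay 413.47 kb below the first and 1044.94 kb above the last. The stretch of 1.51 Mb between those outside peaks held no others. The median distance between adjacent peaks on chromosome 11 was 45.17 kb. Of its 663 such distances, 58 were at least as long as the lower gap and 20 at least as long as the upper one. The nearest outside peaks scored 11.1 and 5.55, against 7.65 to 71.4 in the window. The lower, at chr11:108828021-108828170, had a ratio of 5.36 (3.23 to 9.41), with 102 ChIP and 18 input reads. Its reads were uneven between strands, at 84 plus and 18 minus, and 1 kb around it held 116 input reads. The upper, at chr11:110334751-110334900, held 9 ChIP reads and 1 input read.

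Set among windows of the same length, the Gna13 locus had more EBF1 peaks than most, but many windows had more. Chromosome 11 was tiled into 396 windows of 300 kb in phase with the locus. They held a median of 1 peak and up to 26, and 191 of them (48.2%) held 0. The window with 26, at chr11:2900001-3200000, had 20679 input reads, against 3483 at the locus, and a highest score of 8.14. At least 4 peaks were found in 73 windows, which is 18.4%, and 45 held more than 4. The locus was chosen for a peak and so could not hold 0, and only 205 windows held any peak. Its place by peak number thus follows in part from the choice. The highest score was above that of the Gna13 locus in 1 window, at chr11:51500001-51800000 (score 115, 7 peaks). The locus was chosen for its score, so that place follows from the choice. Counting peaks with a score of at least 10, the locus held 3, and 13 of the 396 windows (3.28%) held at least as many. The peak that the locus was chosen for is among these 3, so nothing is read from that share.

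Away from its peaks the locus was close to the rest of the chromosome. In the 284 bins of 1 kb at least 2 kb from any peak, there were 4045 ChIP and 3289 input reads, whose ratio was 1.16 (1.11 to 1.22). This measure is further from the rule than any above, since the reads of the peaks are left out. The median of the 396 windows was 1.07, with 90% of them between 0.788 and 1.38, and 142 windows (35.9%) lay above the locus. The interval of the Gna13 locus thus lay above the chromosome's median, as did those of 169 of the 396 windows, the locus included. Its background ratio was well within the range of the windows.

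The background also lay inside the range of windows with as many EBF1 peaks. Among the 28 windows with 4 peaks, the locus included, the ratio outside peaks had a median of 1.21 (0.904 to 1.45 from lowest to highest), and 18 were above the locus. The median was 0.931 in windows with 0 peaks and 1.28 in those with 5 or more. The 5 other windows whose strongest peak scored at least 50 had ratios from 1.161 to 1.361 and held 1 to 7 peaks. The windows next to the locus had 1.19 (1.14 to 1.26) below it, with 1 peak, and 1.17 (1.12 to 1.23) above it, with 0 peaks. The intervals of these neighbours overlapped that of the Gna13 locus. The second window below had 1.13 (1.07 to 1.19), which also overlapped, while the second window above had 0.907 (0.862 to 0.956), which did not. Each of these last windows held 0 peaks.

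**Figure D4:**
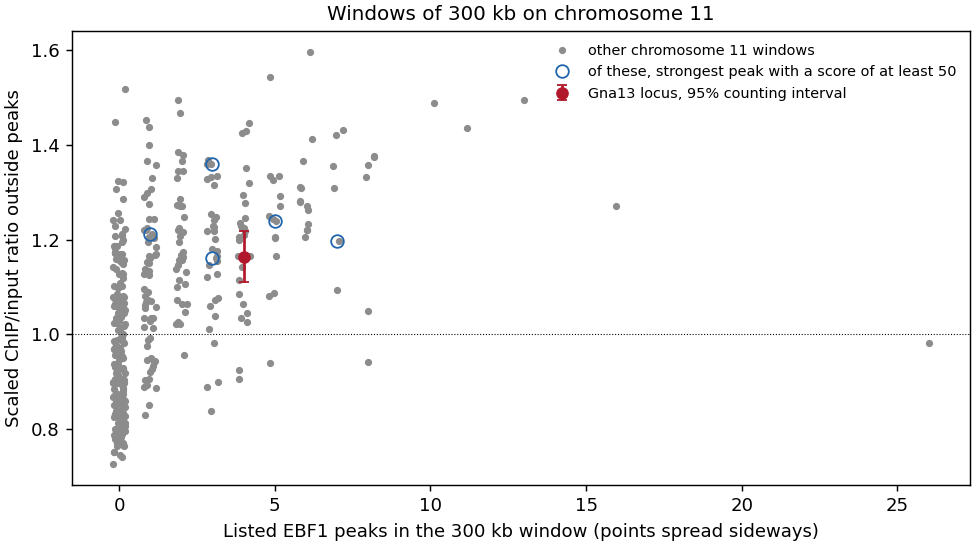
Scaled ChIP to input ratio outside peaks against the number of listed EBF1 peaks, for the 396 windows of 300 kb on chromosome 11; the red point is the Gna13 locus with its 95% counting interval, and rings mark the 5 other windows whose strongest peak has a score of at least 50. The locus, at 4 peaks and 1.16, lies inside the spread of the windows with 4 peaks.

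Within the window the background was alike at the scale of 100 kb, and its ratio spread more widely at 10 kb. The ratio outside peaks was 1.12 (1.04 to 1.21) in the lower 100 kb, 1.20 (1.10 to 1.31) in the middle and 1.18 (1.09 to 1.28) in the upper, with overlapping intervals. In segments of 10 kb, bins near peaks left out, it ran from 0.885 (0.691 to 1.13) at chr11:109100001-109110000 to 1.58 (1.19 to 2.12) at chr11:109390001-109400000. These intervals did not overlap, but the segments were picked as the lowest and highest of 30. Nothing is read from that, and variation beyond counting error was not tested. The interval lay above 1 in 5 of the 30 segments and below 1 in 0. The share of such segments over chromosome 11 was not counted. The ratio of the whole window outside peaks, 1.16, itself lies above 1, so nothing is read from this count. The segment at chr11:109170001-109180000, with 199 ChIP and 125 input reads, had 1.51 (1.20 to 1.90) and holds no listed peak. With peaks included the highest segment was that of the strongest peak, at 3.18. Input had a median of 11 reads per bin and at least 3 in every bin. It reached 51 reads in the bin at chr11:109104001-109105000, where ChIP had 25, a ratio of 0.464 (0.275 to 0.763).

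Taken as reads in excess of scaled input, the window held 1013 ± 92.6 (counting SD) more ChIP reads than input gives. The 16 bins under 2 kb from a peak supplied 443 ± 29.4 of them (43.7%), and the 284 other bins supplied 570 ± 87.8 (56.3%). The larger share of the excess over library-size scaling thus lay outside the peaks. That share, and which part is the larger, depends on this scaling as the zero point. On the same scaling the median ratio outside peaks over the 396 windows of chromosome 11 was 1.07. A ratio above 1 outside peaks is therefore not particular to the locus.

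The ChIP enrichment outside the peaks reached the limits used here in no single bin of the locus. Of the 296 bins without a peak, 0 reached both 20 ChIP reads and a 5-fold ratio, against 0.149% of such bins on chromosome 11. With the ratio lowered to 3 there were 5 (1.69%, against 1.06% on the chromosome), and 0 with the libraries exchanged. Exchanged, a bin needs 20 input reads, against a median of 11 here, and the share on the chromosome is not given. Nothing is read from the exchanged count. The 5 bins held 20 to 25 ChIP and 5 to 7 input reads, and the highest ratio was 3.97 (1.46 to 13.5), at chr11:109191001-109192000. They were picked for their ratio, which raises it. Of the 284 bins at least 2 kb from a peak, 15 (5.28%) had an interval above 1, close to the 4.61% of such bins on chromosome 11.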

How the data were processed

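The authors deposited aligned reads of 35 bp as positions with strand, for 1 EBF1 ChIP and 1 Input library, and a list of 150 bp peaks with a score per peak whose scale no header defines. The score deposited by the authors was used only to rank and filter peaks. Per the submitters' processing notes, reads were placed on mm8 and HOMER was among the tools. How repeats were handled, which aligner and read filter were used and what the peak caller took as control is not given in the sources used here. No position and strand occurred more than once (0 repeats).

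Read starts were shifted by 100 bp in the direction of the read and counted in peaks, in 1 kb bins and in 300 kb windows. Ratios were divided by 1.06, the ratio of reads on chromosomes 1 to 19, X and Y (24337709 ChIP and 23033569 input). A count of 0 allows up to 0.123 RPM in ChIP and 0.130 RPM in input, at 3 counts. Ratio intervals are exact conditional binomial (Clopper-Pearson) and count intervals exact Poisson, all at 95%. They cover counting error only, because there was 1 library per group. They treat each read as a separate molecule, which amplified reads that carry no molecular identifier need not be. The flank for peak widths was 600 to 1000 bp from the centre. Each of the 396 windows had at least 1000 input reads outside peaks. The functions were tested on simulated data.

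The named peaks are all those of the window, the nearest outside it, and the 15 with the highest score and at least 20 ChIP reads. The members and lists were chosen with earlier results of these data known. Genes of the Gna13 pathway were not analysed here, because no mm8 annotation was used. Alternatives were other read shifts, scalings, windows, bins, distances from peaks and a score of at least 10. The tools were scipy 1.17.1, numpy 2.4.6, matplotlib 3.10.9 and pandas 2.3.3 under Python 3.11.15.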

Additional observations from a re-analysis of the deposited data

How the results depend on the processing

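Of 38 alternative values for 9 results, 32 stayed within the counting interval of the value reported (for counts, within 1.5 times it), 6 moved and 0 reversed. Some of the 32 could not have moved. Windows every 100 kb leave the count and the ratio of the locus itself as they were, and a common scaling cannot change a rank among windows. The width and the strand distance have no interval, and any change in them was taken as a move. The share of chromosome 11 windows with at least as many peaks as the locus was 3.28% for peaks with a score of at least 10, 10.6% for windows of 200 kb and 30.4% for windows of 500 kb, against 18.4%. The 4 peaks were inside all 3 window lengths. The locus was chosen for a strong peak and could not hold 0, so nothing is read from these shares. Bins without a peak past the limits numbered 5 at a ratio of at least 3, against 0 at 5. The width of the strongest peak was 126 bp when smoothed over 20 bp, and its strand distance 115 bp from reads within 200 bp. For these 6 values the cause was not tested. The ratio in the strongest peak ran from 20.7 to 86.3 over its alternatives, all inside its interval, which 3 input reads leave wide. The ratio outside peaks stayed between 1.159 and 1.181. No paired analysis was possible because there was 1 library a group.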
